A study of Homo sapiens with 30 samples.

Results

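Expression of 10 urothelial differentiation genes was measured by RNA-seq in 5637 cells, a human bladder carcinoma cell line. These genes encode the uroplakins UPK1A, UPK1B, UPK2, UPK3A and UPK3B and the transcription factors PPARG, GATA3, FOXA1, ELF3 and GRHL3. They were taken by symbol, or by Ensembl identifier in the knockout table, from 60612 genes in the knockout table and from 56303 genes in each of the overexpression and knockdown tables, and all 10 were found in all 3 tables. There were 30 libraries in 10 groups of 3. The knockout experiment held the controls WT1 and WT2 and the RBPMS knockouts KO1 and KO2. The overexpression experiment held Vector, ANKRD10-1 OE and ANKRD10-2 OE, the longer and the shorter splice form of ANKRD10. The knockdown experiment held siNC, siANKRD10-1 and siANKRD10-2, siRNAs against these forms.

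RBPMS is an RNA-binding protein that controls splicing, and ANKRD10 is an ankyrin repeat protein. The study describes the knockouts as expanded from single clones, and each was made with an sgRNA of its own, so a difference between KO1 and KO2 cannot be told apart from a difference between clones. Its figures call the controls sgCtrl, while the labels call them WT. The study places knockdown of the longer ANKRD10 form and overexpression of the shorter form in 5637 cells. It places knockdown of the shorter form and overexpression of the longer form in RBPMS-knockout 5637 cells. The labels name 5637 alone. The background of the Vector and siNC cells is thus not settled here, nor whether the treated groups share it. Differences from these controls, between the forms or between the siRNAs may include a difference in background, which was not tested. Nothing said that the libraries of a group came from separate cultures, so p-values measure the spread between these libraries, which may be technical. In bulk RNA, fewer cells of a type and less RNA per cell cannot be told apart.

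Uroplakins are membrane proteins that pack into plaques on the apical face of umbrella cells, the outermost cells of the urothelium, and make that surface impermeable. UPK1A pairs with UPK2 and UPK1B pairs with UPK3A before they leave the endoplasmic reticulum. PPARG, a nuclear receptor, and the zinc finger factor GATA3 and forkhead factor FOXA1 mark luminal urothelial cells. ELF3, an ETS factor, and GRHL3, a grainyhead factor, act in epithelial differentiation and barrier formation.

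The promoters of 4 of these genes are shown because the results below turn on them. GATA3 and UPK1B were lower in both knockouts, ELF3 went opposite ways in the knockouts, and FOXA1 fell in KO1 and in ANKRD10-2 OE. UPK1B had very few counts and too few to be tested in KO1. In KO2 it was tested through its WT2 libraries alone, and its fall there no longer passed the test whichever 1 library was left out. The RefSeq promoter table of GRCh38.p14 held 8 of the 10 genes, without UPK2 and UPK3A. Each sequence runs 5′ to 3′ on the strand of the gene from 250 bases before to 50 bases after a start site. For genes with several starts, the one nearest the gene start given in the overexpression table was taken. Capitals mark the grainyhead letters AACCGG on the minus strand, which read CCGGTT here.
GATA3, chr10:8053391-8053690, plus strand: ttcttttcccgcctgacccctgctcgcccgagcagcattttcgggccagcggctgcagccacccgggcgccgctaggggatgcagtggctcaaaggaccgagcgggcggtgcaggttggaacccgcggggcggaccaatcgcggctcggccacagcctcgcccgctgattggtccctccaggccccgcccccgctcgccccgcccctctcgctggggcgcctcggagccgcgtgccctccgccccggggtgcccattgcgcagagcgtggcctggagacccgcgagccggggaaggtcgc
FOXA1, chr14:37595200-37595499, minus strand: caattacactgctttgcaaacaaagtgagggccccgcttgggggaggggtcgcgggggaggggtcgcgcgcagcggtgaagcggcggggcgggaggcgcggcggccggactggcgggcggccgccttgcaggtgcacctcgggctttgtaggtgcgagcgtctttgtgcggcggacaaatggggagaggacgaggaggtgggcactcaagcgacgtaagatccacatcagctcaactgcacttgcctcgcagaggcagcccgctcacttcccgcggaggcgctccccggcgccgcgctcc
ELF3, chr1:202010337-202010636, plus strand: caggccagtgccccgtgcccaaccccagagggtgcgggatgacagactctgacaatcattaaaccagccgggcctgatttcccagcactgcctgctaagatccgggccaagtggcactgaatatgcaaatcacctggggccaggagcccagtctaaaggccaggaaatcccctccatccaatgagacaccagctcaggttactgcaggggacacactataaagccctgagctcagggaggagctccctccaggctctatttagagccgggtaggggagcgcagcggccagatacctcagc
UPK1B, chr3:119173348-119173647, plus strand: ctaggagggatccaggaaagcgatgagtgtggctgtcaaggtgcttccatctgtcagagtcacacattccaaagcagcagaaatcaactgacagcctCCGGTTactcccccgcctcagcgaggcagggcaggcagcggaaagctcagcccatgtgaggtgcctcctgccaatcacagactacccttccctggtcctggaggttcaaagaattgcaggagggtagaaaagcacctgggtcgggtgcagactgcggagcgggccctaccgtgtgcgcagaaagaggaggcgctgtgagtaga

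The promoters of GATA3 and FOXA1 had a GC content of 74.7% and 69.3% with 36 and 34 CpG dinucleotides, against medians of 58.7% and 14 over all 35116 promoters of the table. Those of ELF3 (59.0%, 7 CpG) and UPK1B (58.3%, 11 CpG) were near or below these medians. Both strands were searched for the letters bound by each family. A site for GATA factors, GATAAG, was in 6.36% of all promoters. A forkhead site, TGTTTAC, was in 3.42%, and an ETS site, CCGGAA, was in 17.2%. The grainyhead site AACCGG was in 7.23%, the nuclear receptor half-site AGGTCA in 13.8% and the E-box CACGTG in 7.26%. The ETS and grainyhead letters overlap in part. In the 8 promoters, AACCGG was found once, in UPK1B at -153 to -148 from the start site, and AGGTCA was found at 2 places in PPARG, at -217 to -212 and at -184 to -179. These matches are descriptions of letters only.

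Total counts were 44593108 to 69723937 per library in the knockout table, 31736779 to 47493499 in the overexpression table and 28511029 to 32784584 in the knockdown table. The targeted genes followed the labels. RBPMS was at 40.4 ± 1.66 CPM (SD, n = 3; counts scaled to the library total times its TMM normalization factor) in WT1 and 14.9 ± 0.505 in KO1, and at 43.1 ± 0.937 in WT2 and 20.3 ± 1.23 in KO2. ANKRD10 counts of all forms together rose in ANKRD10-1 OE (log2 fold change 0.67) and ANKRD10-2 OE (0.41) and fell with siANKRD10-1 (-0.24) and siANKRD10-2, where the value was -0.25. They also fell in the knockouts, from 194.6 ± 4.64 to 86.3 ± 4.2 CPM in KO1 (-1.18) and from 190.3 ± 5.77 to 112.6 ± 4.15 CPM in KO2 (-0.76). Epithelial markers (EPCAM, CDH1, KRT7, KRT8, KRT18 and KRT19) summed to 2483 to 4704 CPM per library over the whole series. Of 12 stromal and immune markers, whose summed level was 39.0 to 86.8 CPM, COL1A1 was the highest in every group, and the leukocyte marker PTPRC was at 0 in 6 of 10 groups.

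Among the 10 genes the transcription factors PPARG, GATA3, FOXA1 and ELF3 were expressed, and GRHL3 and the uroplakins were low or absent. To compare genes, CPM was divided by exon length, and all levels in this paragraph are CPM per kilobase. Exon lengths were those of the overexpression table for every group, also for the knockout experiment, which was counted in another table. In WT1, GATA3 (17.2 ± 0.548), FOXA1 (16.7 ± 0.50) and PPARG (16.1 ± 0.476) stood highest with overlapping neighbours, followed by ELF3 at 12.1 ± 0.211. UPK3B followed at 1.46 ± 0.283 and UPK2 at 0.260 ± 0.0810, each separated from its neighbours. GRHL3 (0.0861 ± 0.0330), UPK1B (0.0841 ± 0.0293) and UPK3A (0.0300 ± 0.0278) overlapped in that order, and UPK1A was at 0. In WT2, ELF3 (17.1 ± 0.336) stood with FOXA1 (17.1 ± 1.02) and GATA3 (16.6 ± 0.120) above PPARG at 14.8 ± 0.441.

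The tables were normalized separately, so levels across them are set side by side only. In Vector cells, ELF3 (18.3 ± 0.140) and PPARG (14.5 ± 1.72) were highest, while GATA3 was at 2.22 ± 0.332, FOXA1 at 1.38 ± 0.116, UPK2 at 1.29 ± 0.348 and UPK3B at 0.415 ± 0.0875 CPM per kilobase. The order therefore differed from WT1, since in Vector cells ELF3 and PPARG stood above GATA3 and FOXA1. UPK2 also stood above UPK3B there and overlapped FOXA1. In siNC cells, ELF3 was again highest at 9.23 ± 0.363 CPM per kilobase, and FOXA1 (3.35 ± 0.303) and GATA3 (3.31 ± 0.266) were below it and below PPARG at 7.09 ± 0.0328. RBPMS itself was at 5.13 ± 0.36 CPM in Vector cells and at 5.01 ± 0.749 CPM in siNC cells. It was at 4.50 ± 0.811 CPM with the longer form overexpressed and at 5.40 ± 0.788 CPM with the shorter form. With the siRNA against the longer form it was at 4.65 ± 0.0892 CPM, and against the shorter form at 5.11 ± 0.0717 CPM.

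**Figure D1:**
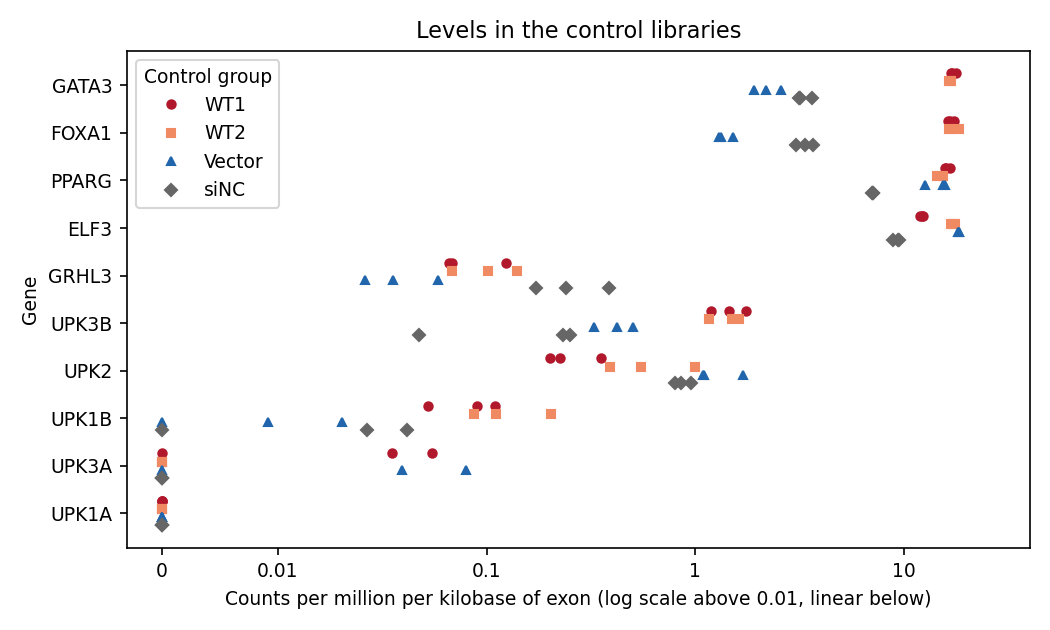
Level of each of the 10 genes in the 12 control libraries, in CPM per kilobase of exon (log scale above 0.01, linear below), with 1 point per library. PPARG and ELF3 were high in all 4 control groups, GATA3 and FOXA1 were lower in Vector and siNC than in WT1 and WT2, and UPK1A was at 0 throughout.

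UPK1A and UPK3A could not be compared. UPK1A had 0 counts in 8 of 10 groups and 5 and 2 counts in all in ANKRD10-1 OE and siANKRD10-2. UPK3A had 5 counts in all in WT1, 5 in Vector and 1 in each OE group, and 0 in the other 6 groups. A count of 0 over a group allows up to 3 counts in that group, counting error only. In UPK1A 18.9% of exon bases are shared with the antisense gene UPK1A-AS1, and whether strand was used in counting is not given in the sources used here, so reads of these genes cannot be told apart.

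The knockouts were compared with their controls to ask how the loss of RBPMS changed these genes. GATA3 fell in both knockouts. ELF3 rose in KO1 and fell in KO2, PPARG rose slightly in both and FOXA1 fell in KO1. In KO1, 7 of the 10 genes passed the filter on low counts, and 2 rose and 2 fell at an adjusted p under 0.05 (edgeR quasi-likelihood test with p-values adjusted over all genes by Benjamini and Hochberg), beside 36.1% of all 17865 genes tested. In KO2, 8 passed the filter, and 1 rose and 4 fell, beside 38.5% of all 18267 genes. The 3 genes not tested in KO1 were UPK1A, UPK1B and UPK3A, and in KO2 the 2 not tested were UPK1A and UPK3A.

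GATA3 was measured at 57.9, 54.4 and 55.5 CPM in WT1 and at 22.8, 23.2 and 19.6 CPM in KO1. It was at 54.4, 54.1 and 53.6 CPM in WT2 and at 32.8, 32.3 and 31.2 CPM in KO2. All 6 control libraries lay above all 6 knockout libraries, and KO1 lay below KO2. The log2 fold change was -1.35 ± 0.07 (SE) in KO1, with an edgeR adjusted p of 3.47e-07, and -0.76 ± 0.05 in KO2, with an adjusted p of 1.81e-07. The difference between the effects was -0.60 ± 0.09 (adjusted p = 7.96e-05 over all 12 libraries), where 23.3% of 19189 genes were called. GATA3 lies on chr10:8053604-8075198 (GRCh38), and the median log2 fold change among tested genes within 5 Mb of it was 0.12 in either knockout.

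FOXA1 opens compacted chromatin for other factors. It was at 68.9, 65.0 and 66.1 CPM in WT1 and at 51.1, 54.0 and 54.1 CPM in KO1, with no overlap, and fell by 0.33 on the log2 scale (SE 0.05, edgeR adjusted p = 0.000694). In WT2 it was at 66.2, 65.1 and 72.6 CPM and in KO2 at 58.3, 57.5 and 66.3 CPM, where 1 KO2 library reached the range of the controls. The log2 fold change in KO2 was -0.17 ± 0.06 (edgeR adjusted p = 0.0524) and did not pass the threshold. It passed without KO2 replicate 3 (adjusted p = 0.0123), under DESeq2 (0.0381), with all groups of the table (0.0486) and against all 6 control libraries (0.0370). The difference between the knockouts was -0.17 ± 0.09 with an adjusted p of 0.192. The 31 tested genes within 5 Mb of FOXA1 had a median of -0.16 in KO2 and are given beside it, and their part in the value was not tested.

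ELF3, whose promoter is shown above, went opposite ways in the knockouts. It was at 87.4, 85.4 and 88.3 CPM in WT1 and at 127, 116 and 130 CPM in KO1. In WT2 it was at 121, 123 and 126 CPM and in KO2 at 83.9, 81.7 and 81.8 CPM. The KO1 libraries spanned the WT2 range, and KO2 lay just below WT1. The log2 fold change was 0.52 ± 0.05 in KO1 (edgeR adjusted p = 3.38e-05) and -0.58 ± 0.04 in KO2 (adjusted p = 2.72e-07), and their difference was 1.10 ± 0.06 (adjusted p = 6.83e-09).

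The 2 control groups of ELF3 also differed. WT2 was above WT1 by 0.50 ± 0.04 on the log2 scale with an edgeR adjusted p of 0.000132. ELF3 was the 1 of 8 tested members called between the controls, where 1.23% of 18335 genes were called. Against all 6 control libraries together, ELF3 was at 0.25 in KO1 with an adjusted p of 0.124, so the rise was no longer called, and at -0.35 in KO2 with an adjusted p of 0.0335. Of the exon bases of ELF3 7.70% are shared with an antisense gene and 9.23% with a gene on the same strand, so reads there are uncertain.

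PPARG was at 63.6, 64.5 and 67.3 CPM in WT1 and at 70.6, 75.1 and 77.4 CPM in KO1. It was at 61.9, 58.3 and 60.1 CPM in WT2 and at 69.1, 65.4 and 66.7 CPM in KO2. Each knockout lay above its control without overlap, by small steps. The log2 fold changes were 0.19 ± 0.06 (edgeR adjusted p = 0.0201) and 0.15 ± 0.05 (adjusted p = 0.0193), and the difference was 0.03 ± 0.07 (adjusted p = 0.809). The KO1 call was lost without WT1 replicate 1, WT1 replicate 2 or KO1 replicate 3, and the KO2 call without WT2 replicate 2, WT2 replicate 3 or KO2 replicate 1, with adjusted p-values of at most 0.0744 and 0.0643. The KO2 call was also lost without a filter on low counts (adjusted p = 0.0584) and against all 6 control libraries, where PPARG was at 0.10 with an adjusted p of 0.138.

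**Figure D2:**
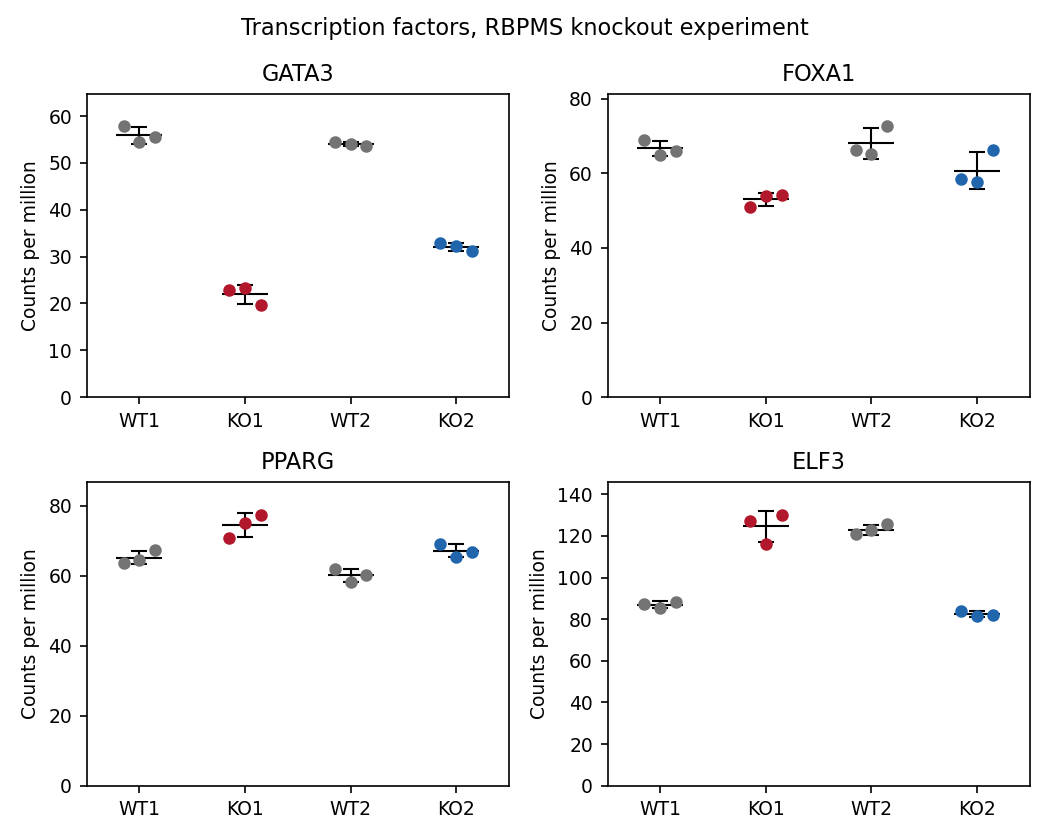
CPM of GATA3, FOXA1, PPARG and ELF3 in each library of the knockout experiment, with the mean (line) and SD (bars) of 3 libraries. GATA3 in KO1 and KO2 sits between 19.6 and 32.8, below all controls, while ELF3 in KO1 sits near WT2 and in KO2 near WT1.

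GRHL3 was low in this table, at 14 to 39 counts per control library, 31 to 44 in KO1 and 20 to 25 in KO2. The groups KO1 (44, 33 and 31 counts) and WT1 (14, 14 and 33 counts) overlapped in counts, and in CPM KO1 lay above (0.598 to 0.752 against 0.259 to 0.489). Its log2 fold change was 0.97 ± 0.45 in KO1 (edgeR adjusted p = 0.123) and -0.00 ± 0.47 in KO2 (adjusted p = 0.996), with a difference of 0.97 ± 0.63 (adjusted p = 0.313).

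UPK1B, the tetraspanin partner of UPK3A, was at 0 counts in KO1 and lower in KO2 than in WT2, at very few counts throughout. It had 13, 11 and 8 counts in WT1 and 0, 0 and 0 counts in KO1. In WT2 it had 31, 14 and 14 counts and in KO2 4, 4 and 5 counts. All control libraries had more counts than all knockout libraries. UPK1B did not pass the filter in KO1, where it was at least 9.96-fold lower, with 3 counts over the 3 KO1 libraries as the floor, and without a filter its edgeR adjusted p was 0.0197. Every KO2 library was under the filter's minimum count of 10, so UPK1B was tested in KO2 through its WT2 libraries alone. A gene that enters a test this way is one whose control is high, which favours a fall. In KO2 the log2 fold change was -1.97 ± 0.68 (edgeR adjusted p = 0.0387). That call was lost whichever 1 of the 6 libraries was left out, with adjusted p-values of 0.0550 to 0.209, and it was also lost under DESeq2 (adjusted p = 0.0568), without a filter, with all groups and against all 6 control libraries (adjusted p up to 0.0741). The difference between the knockouts had an adjusted p of 0.0591.

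UPK2, the partner of UPK1A, shares 4.88% of its exon bases with the antisense gene BCL9L. It was at 13, 21 and 15 counts in WT1 and 42, 30 and 27 counts in KO1. It was at 74, 24 and 43 counts in WT2 and 9, 24 and 24 counts in KO2. KO1 was above WT1 without overlap, while KO2 and WT2 touched. Neither comparison passed: the log2 fold change was 1.09 ± 0.46 in KO1 (edgeR adjusted p = 0.0917) and -1.08 ± 0.53 in KO2 (adjusted p = 0.129). The difference between these effects, 2.17 ± 0.70, passed (adjusted p = 0.0352), and that call was lost without WT1 replicate 1 or 3, KO1 replicate 1 or 2, WT2 replicate 1 or KO2 replicate 1 or 3, with adjusted p-values up to 0.122, and without a filter (0.0532). WT2 lay above WT1 by 1.32 ± 0.48 with an adjusted p of 0.246.

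UPK3B was the most abundant uroplakin in the knockout table, while in Vector and siNC cells UPK2 was above it on average (1.43 against 1.11 and 0.959 against 0.472 CPM). UPK3B was at 3.15, 4.65 and 3.85 CPM in WT1 and at 3.71, 4.49 and 4.47 CPM in KO1, which overlapped (log2 fold change 0.12 ± 0.19, edgeR adjusted p = 0.675). It was at 3.08, 4.0 and 4.32 CPM in WT2 and at 2.37, 1.99 and 2.46 CPM in KO2, which did not overlap. UPK3B fell in KO2 by 0.74 on the log2 scale (SE 0.20, adjusted p = 0.0102). The difference between the knockouts was 0.86 ± 0.27 (adjusted p = 0.0316), and it was lost without WT1 replicate 1 or 3, KO1 replicate 2 or 3, WT2 replicate 2 or 3 or KO2 replicate 2, with adjusted p-values up to 0.0838, and without a filter (0.0590).

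**Figure D3:**
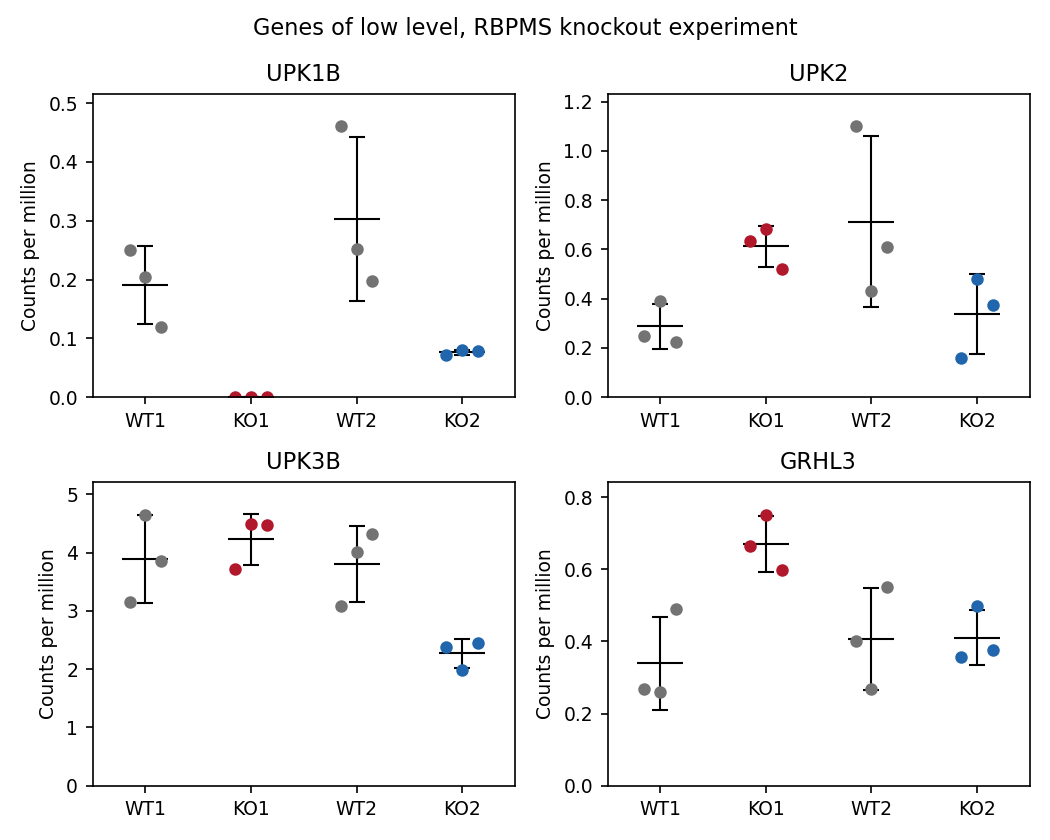
CPM of UPK1B, UPK2, UPK3B and GRHL3 in each library of the knockout experiment, with the mean (line) and SD (bars) of 3 libraries. UPK1B was at 0 in KO1 and at 4 to 5 counts in KO2, and UPK3B was below its control in KO2.

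Other genes of the urothelial programme were counted in lists. Beside each count in the knockouts stands the share called over all tested genes, 36.1% in KO1 and 38.5% in KO2. In KO1, 1 luminal marker rose and 3 fell of 10 tested, with a median log2 fold change of -0.15 beside -0.00 over all genes. In KO2, 3 rose and 6 fell of 11, with a median of -0.21 beside -0.02 over all genes. ERBB3, a growth factor receptor, fell from 62.4 ± 2.66 to 41.7 ± 3.31 CPM in KO1 and from 64.3 ± 1.96 to 46.4 ± 2.44 CPM in KO2 (edgeR adjusted p of 7.35e-05 and 1.54e-05). The luminal markers that rose, named after their values were seen, were XBP1 (0.22) in KO1, and KRT7 (0.43), XBP1 (0.41) and KRT18 (0.25) in KO2. Among basal markers 6 rose and 3 fell of 11 in KO1 (median 0.46), and 4 rose and 2 fell of 12 in KO2 (median 0.22). KRT6A, a keratin of stressed and squamous epithelium, rose from 91.5 ± 4.90 to 210.3 ± 7.45 CPM in KO1 and from 73.3 ± 2.83 to 129.0 ± 7.07 CPM in KO2. The rises were not all shared. On the log2 scale KRT14 rose by 3.33 ± 0.32 and KRT5 by 0.46 ± 0.04 in KO1, and neither was called in KO2 (-0.50 ± 0.54 and -0.06 ± 0.03). The basal markers that fell, named after their values were seen, were TP63 (-0.56), a master factor of basal cells, KRT17 (-0.33) and COL17A1 (-0.40) in KO1, and KRT17 (-0.18) and COL17A1 (-0.33) in KO2.

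Among 12 partner transcription factors 1 rose and 5 fell in KO1 (median -0.14), led by TBX3 at -1.06 ± 0.07, and 4 rose and 6 fell in KO2 (median -0.21), led by GRHL1 at -0.60 ± 0.08. RXRA, the receptor that dimerizes with PPARG, fell by 0.53 on the log2 scale in KO2. Of 9 tested PPAR response genes, 2 rose and 2 fell in KO1 (median -0.11), and 2 rose and 6 fell in KO2 (median -0.39). FABP4, a fatty acid carrier, fell from 33.5 ± 2.43 to 14.5 ± 1.03 CPM in KO2, and ACSL5, an acyl-CoA synthetase, rose from 9.85 ± 1.24 to 33.2 ± 1.65 CPM in KO1. Both moved the same way in the other knockout, by -0.27 ± 0.07 for FABP4 in KO1 and 0.61 ± 0.08 for ACSL5 in KO2 (edgeR adjusted p of 0.00819 and 0.000103), and FABP4 was lower in WT2 than in WT1 by -0.80 ± 0.06 (adjusted p = 0.000119).

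Umbrella cell vesicle and barrier genes had 2 rises and 2 falls of 10 tested in KO1 (median -0.09) and 4 falls in KO2 (median -0.28). AQP3, a water and glycerol channel, rose by 1.05 ± 0.06 on the log2 scale in KO1, and fell by 0.81 in KO2. SYTL2, a RAB27 effector, fell in both (-1.16 ± 0.17 and -0.59 ± 0.17). The stromal and immune markers had 1 rise and 2 falls of 7 in KO1 (median -0.28) and 2 rises and 2 falls of 6 in KO2 (median -0.29), and LUM, a collagen-binding proteoglycan, fell in both (-6.12 ± 0.72 and -2.93 ± 0.21). PECAM1, an endothelial adhesion molecule, rose in both (1.44 ± 0.30 and 1.46 ± 0.46), from 0.604 ± 0.0596 to 1.65 ± 0.325 CPM in KO1. The other rise in KO2 was that of the macrophage marker CD68 (4.16 ± 0.51), and both rises in KO2 were of genes under 1 CPM on average, named after their values were seen. Their summed level was 59.1 to 62.1 CPM in WT1 and 39.0 to 44.9 CPM in KO1, and 61.0 to 64.1 CPM in WT2 and 56.5 to 59.4 CPM in KO2. The part of these markers in the values above was not tested. The epithelial markers had 2 rises in KO1 (median 0.01) and 3 rises and 2 falls in KO2 (median 0.12), of 6.

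The overexpression experiment asked what each splice form of ANKRD10 did, and both forms were compared with the same Vector libraries. Whether all its cells share an RBPMS background is not settled. In ANKRD10-2 OE, FOXA1 fell and PPARG rose slightly. In ANKRD10-1 OE, none of 6 genes that passed the filter was called by edgeR, 0 had an unadjusted p under 0.05 and DESeq2 called 0, beside 6.31% of 20457 genes called. In ANKRD10-2 OE, 1 rose and 1 fell of 6, beside 19.9% of 20177 genes. Between the forms, 2 were higher and 1 was lower in ANKRD10-2 OE, beside 7.26% of 20052 genes.

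FOXA1 was at 5.17, 5.32 and 6.03 CPM in Vector, at 5.47, 4.86 and 4.86 CPM in ANKRD10-1 OE and at 3.17, 3.69 and 3.23 CPM in ANKRD10-2 OE. The 3 libraries of ANKRD10-2 OE lay below the other 6, which overlapped. FOXA1 fell by 0.72 on the log2 scale in ANKRD10-2 OE (SE 0.13, edgeR adjusted p = 0.00157), and was at -0.12 ± 0.11 in ANKRD10-1 OE (adjusted p = 0.598). The difference of ANKRD10-2 OE from ANKRD10-1 OE was -0.60 ± 0.13 (adjusted p = 0.00830), a call lost without ANKRD10-1 OE replicate 1 (adjusted p = 0.0644).

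PPARG was at 62.2, 50.8 and 63.3 CPM in Vector, at 60.6, 61.0 and 57.8 CPM in ANKRD10-1 OE and at 70.7, 68.6 and 68.4 CPM in ANKRD10-2 OE. The ANKRD10-2 OE libraries lay above all others. The log2 fold change was 0.24 ± 0.07 (edgeR adjusted p = 0.0364) against Vector and 0.21 ± 0.05 against ANKRD10-1 OE (adjusted p = 0.0191), the second lost without any 1 ANKRD10-1 OE library or ANKRD10-2 OE replicate 3 (adjusted p up to 0.0825). Against Vector the call was lost without Vector replicate 2 or any 1 ANKRD10-2 OE library (adjusted p up to 0.128).

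GATA3 was at 8.38, 7.08 and 6.24 CPM in Vector, at 7.41, 6.77 and 7.15 CPM in ANKRD10-1 OE and at 8.98, 8.26 and 9.65 CPM in ANKRD10-2 OE. ANKRD10-2 OE overlapped Vector and lay above ANKRD10-1 OE. Its log2 fold change of 0.32 ± 0.12 against Vector did not pass (edgeR adjusted p = 0.0733), and that of 0.34 ± 0.10 against ANKRD10-1 OE did (adjusted p = 0.0468), a call lost without any 1 of the libraries except ANKRD10-2 OE replicate 2 (adjusted p up to 0.178) and without a filter (0.0648). Against Vector it passed without Vector replicate 1 (adjusted p = 0.0305) and with all groups of the table (0.0481). ELF3 was at 130 to 132 CPM in Vector, 123 to 132 in ANKRD10-1 OE and 129 to 141 in ANKRD10-2 OE, with log2 fold changes of -0.05 ± 0.04 and 0.05 ± 0.05 (adjusted p of 0.597 and 0.569).

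UPK2 was at 53 to 67 counts in Vector, 56 to 63 in ANKRD10-1 OE and 43 to 54 in ANKRD10-2 OE. UPK3B was at 31 to 58, 30 to 54 and 14 to 52 counts. Their log2 fold changes lay between -0.41 ± 0.35 and -0.04 ± 0.23, and with SEs of this size changes of that order were not detectable. GRHL3 had 5 to 10 counts per library in Vector, 0 to 6 in ANKRD10-1 OE and 2 to 10 in ANKRD10-2 OE, and UPK1B had 3, 2 and 0 counts in all, so neither passed the filter.

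In ANKRD10-1 OE the lists gave 3 rises and 1 fall of 10 luminal markers, 2 rises of 12 basal markers, 3 falls of 9 PPAR response genes, 1 fall of 9 stromal and immune markers and 3 rises of 6 epithelial markers. None of 12 partner transcription factors and none of 8 umbrella cell genes was called by edgeR, where 2 of each had an unadjusted p under 0.05 and DESeq2 called 1 and 0. List medians lay between -0.13 and 0.16, beside -0.00 over all genes, of which 6.31% were called. In ANKRD10-2 OE there were 3 rises and 2 falls of 10 luminal markers, 6 rises of 12 basal markers, 1 rise and 3 falls of 12 partner factors, 2 rises and 1 fall of 9 PPAR response genes, 1 rise and 2 falls of 8 umbrella cell genes, 1 fall of 9 stromal and immune markers and 4 rises of 6 epithelial markers. KRT5, a basal keratin, rose from 211.3 ± 5.17 to 286.0 ± 13.9 CPM, and AQP3 fell from 21.5 ± 1.96 to 13.8 ± 1.45 CPM (edgeR adjusted p of 3.43e-05 and 0.000317). List medians lay between -0.09 and 0.24, beside -0.01 over all genes, of which 19.9% were called.

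The knockdown experiment asked the converse question, and both siRNAs were compared with the same siNC libraries. Here too, a shared RBPMS background of all cells is not settled. ELF3 fell with siANKRD10-2, and GRHL3, at few counts, fell with both. With siANKRD10-1, 1 of 7 genes that passed the filter fell and no other was called, beside 10.6% of 18785 genes. With siANKRD10-2, 2 of 7 fell, beside 36.3% of 18924 genes. Between the siRNAs 2 of 7 were lower with siANKRD10-2, beside 37.0% of 18832 genes.

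ELF3 was at 63.4, 67.4 and 68.3 CPM in siNC, at 64.3, 62.3 and 64.8 CPM with siANKRD10-1 and at 36.6, 38.3 and 35.8 CPM with siANKRD10-2. The 3 libraries of siANKRD10-2 lay far below the other 6, which overlapped. ELF3 fell by 0.85 on the log2 scale with siANKRD10-2 (SE 0.06, edgeR adjusted p = 2.18e-11) and was at -0.06 ± 0.06 with siANKRD10-1 (adjusted p = 0.593). The difference between the siRNAs was -0.79 ± 0.06 (adjusted p = 7.97e-10). All 6 epithelial markers fell with siANKRD10-2 as well, with a median of -0.67, from a summed 4406 to 4704 CPM in siNC to 2800 to 2934 CPM, and with siANKRD10-1 3 of 6 fell, to 3721 to 4050 CPM. Their part in the value of ELF3 was not tested.

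GRHL3 was at 50, 22 and 30 counts in siNC, at 8, 12 and 12 counts with siANKRD10-1 and at 16, 3 and 19 counts with siANKRD10-2. All siNC libraries lay above all others, at few counts. With siANKRD10-1 replicate 1 (8 counts) and siANKRD10-2 replicate 2 (3 counts) under the filter's minimum count of 10, only siNC reached it in every library. The gene thus met the filter in full only in the group where it was high, and both tests rest on those same siNC libraries. The log2 fold change was -1.63 ± 0.39 with siANKRD10-1 (edgeR adjusted p = 0.0110) and -1.32 ± 0.43 with siANKRD10-2 (adjusted p = 0.0166), and the siRNAs differed by 0.31 ± 0.50 (adjusted p = 0.671). The first call was lost without siNC replicate 1 or siANKRD10-1 replicate 1 (adjusted p up to 0.104), and the second without siNC replicate 1 or siANKRD10-2 replicate 2 (adjusted p up to 0.137).

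**Figure D4:**
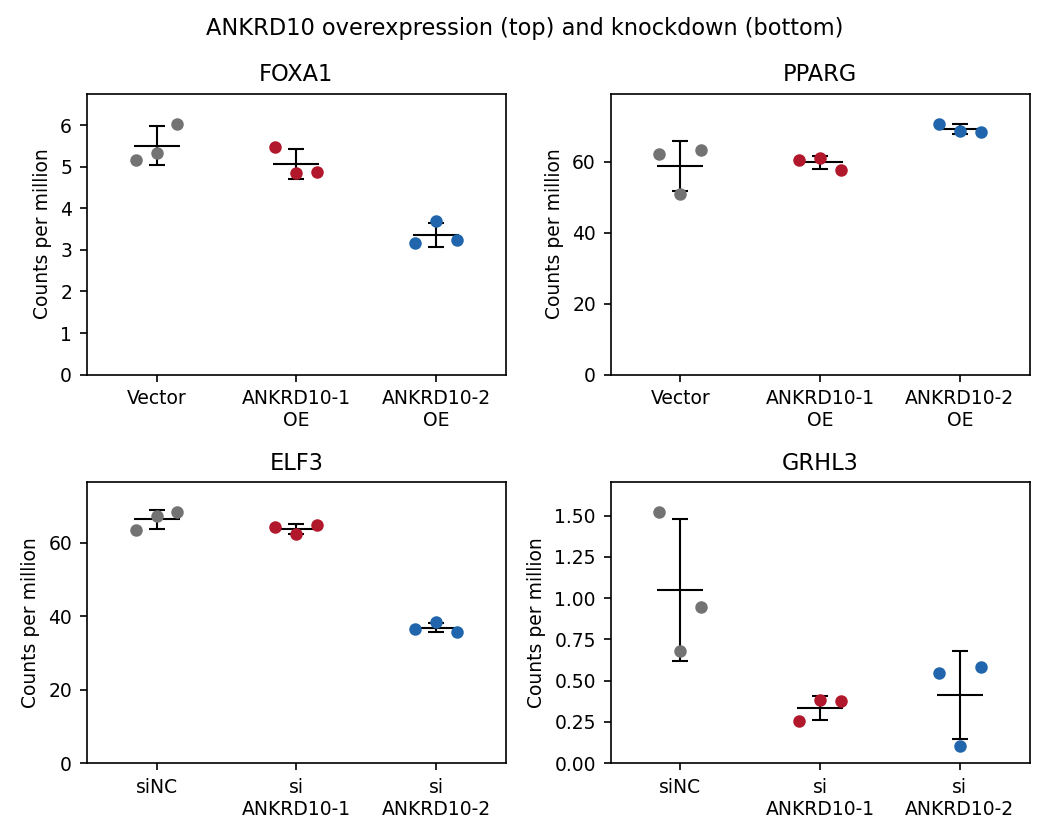
CPM of FOXA1 and PPARG in the overexpression experiment (top) and of ELF3 and GRHL3 in the knockdown experiment (bottom), with the mean (line) and SD (bars) of 3 libraries. FOXA1 in ANKRD10-2 OE sits at 3.17 to 3.69, below the other groups, and ELF3 with siANKRD10-2 sits at 35.8 to 38.3, below the other groups.

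PPARG was at 28.7, 28.8 and 28.5 CPM in siNC, at 30.1, 30.8 and 27.7 CPM with siANKRD10-1 and at 26.3, 25.4 and 25.8 CPM with siANKRD10-2. Against siNC its log2 fold change with siANKRD10-2 was -0.15 ± 0.07 (edgeR adjusted p = 0.0796), and against siANKRD10-1 -0.19 ± 0.07 (adjusted p = 0.0378), a call lost without any 1 of the libraries except siANKRD10-1 replicate 3 (adjusted p up to 0.111), under DESeq2 (0.0601) and without a filter (0.0740). GATA3 was at 10.2 to 11.8 CPM in siNC, 8.16 to 9.88 with siANKRD10-1 and 9.75 to 11.3 with siANKRD10-2, and FOXA1 was at 12.1 to 14.5, 10.9 to 13.8 and 11.2 to 12.2 CPM. Neither passed with either siRNA, except FOXA1 with siANKRD10-2 when siNC replicate 2 was left out (adjusted p = 0.0454), with log2 fold changes between -0.24 ± 0.10 and -0.06 ± 0.10. UPK2 had 28 to 34 counts in siNC, 27 to 32 with siANKRD10-1 and 14 to 22 with siANKRD10-2, where it was -0.66 ± 0.33 (adjusted p = 0.121). UPK3B had 4 to 22, 17 to 21 and 10 to 27 counts, and UPK1B had 5, 4 and 2 counts in all.

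With siANKRD10-1, 2 of 9 luminal markers fell, 1 of 12 basal markers rose and 4 fell, 3 of 12 partner factors fell, 2 of 8 PPAR response genes rose, and 2 of 8 umbrella cell genes fell. None of 8 stromal and immune markers was called by edgeR, where 3 had an unadjusted p under 0.05 and DESeq2 called 0. List medians lay between -0.22 and 0.09, beside 0.00 over all genes. The share called over all tested genes was 10.6% with siANKRD10-1 and 36.3% with siANKRD10-2. With siANKRD10-2, 2 of 9 luminal markers rose and 5 fell (median -0.60), 1 of 12 basal markers rose and 6 fell (-0.32), 3 of 12 partner factors rose and 4 fell (-0.08), 3 of 9 PPAR response genes rose (0.28), 2 of 8 umbrella cell genes rose and 4 fell (-0.19), and 1 of 8 stromal and immune markers rose and 3 fell (-0.19). KLF5, a factor of epithelial progenitors, fell from 329.9 ± 2.23 to 248.5 ± 9.52 CPM with siANKRD10-1 and to 220.4 ± 17.2 CPM with siANKRD10-2. AQP3 fell from 51.2 ± 4.86 to 27.2 ± 0.716 and 27.7 ± 1.32 CPM.

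**Figure D5:**
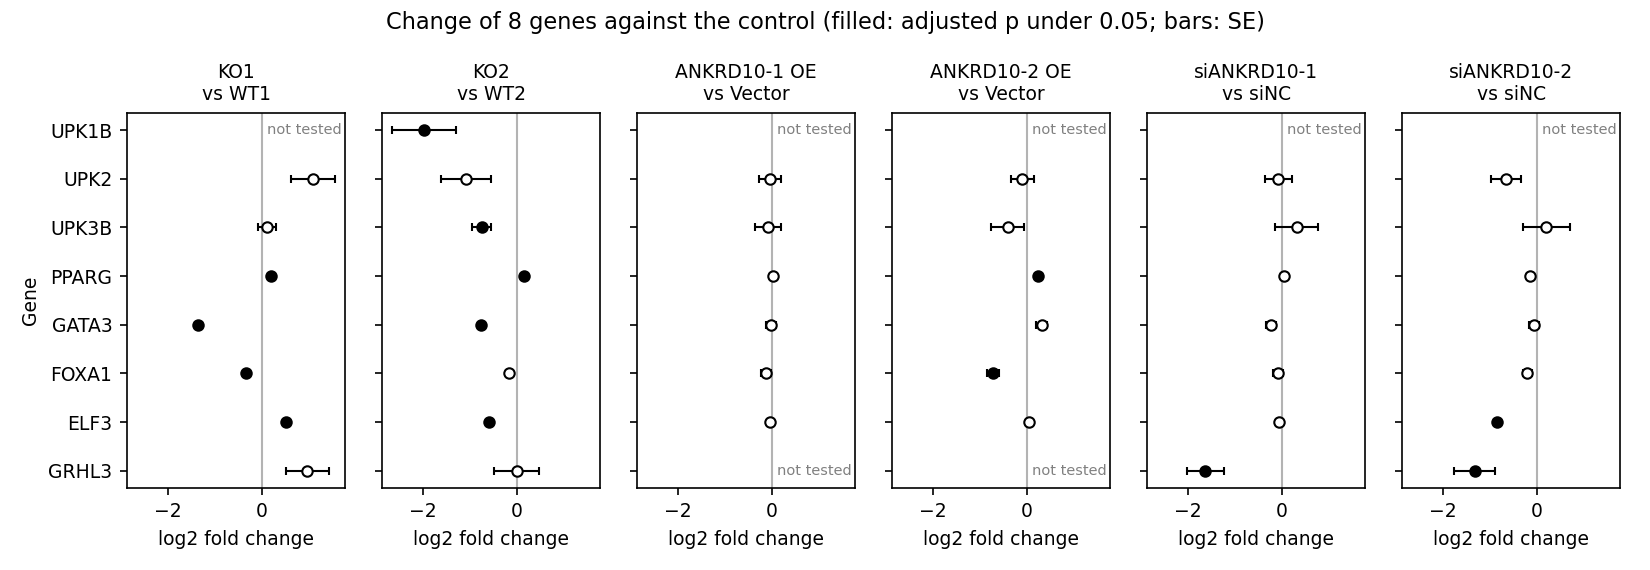
Log2 fold change (points) with SE (bars) of the 8 genes with enough counts in at least 1 comparison, against the control of each experiment, with filled points at an adjusted p under 0.05. The GATA3 point is filled and left of 0 in both knockout panels, and ELF3 lies on opposite sides in KO1 and KO2.

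The genes most like ELF3, the factor with the highest mean CPM, across the 30 libraries were sought among 11666 genes with at least 1 CPM on average in every table, on log2(CPM + 1) centred within each table. They were CTSD, with a Pearson correlation of 0.91, and DENND1A and GGCT, both at 0.89. The points share groups and experiments, so this is a description. Against the same measure PPARG was at 0.33, FOXA1 at 0.03 and GATA3 at -0.14. UPK3B, the uroplakin with the highest mean CPM, was under 1 CPM in the knockdown table and was not compared.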

How the data were processed

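RNA-seq libraries of poly(A) RNA from 5637 cells were made with a stranded kit. The authors trimmed reads with Cutadapt and Trimmomatic (0.36) and aligned them with HISAT2, and their submitted processing notes name featureCounts of Subread (1.5.1) and GRCh38. They deposited raw counts of reads per gene, not normalized, in 3 tables, and no pooled columns were used. Columns of no known sample numbered 0. The knockout table was read by Ensembl identifier and the others by symbol. The positions of the overexpression and knockdown tables are those of GRCh38.

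Counts were analysed in R (4.3.3) with edgeR (4.0.16): filterByExpr (minimum count 10, minimum total 15), TMM normalization and the quasi-likelihood test of the libraries compared, p-values adjusted by Benjamini and Hochberg over every gene tested, and a threshold of 0.05. Log2 fold changes used a prior count of 0.125, and CPM used library size times the TMM factor. DESeq2 (1.42.0), DESeq2's size factors, no filter, a replicate block, all groups of a table, all 6 WT libraries, a 2-fold minimum change (1 on the log2 scale) and leaving out each library were the alternatives. An exact permutation test of 3 against 3 cannot go below 0.1 and was not used. The fit was tested on simulated counts.

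The 10 genes, the lists and the tests were chosen with earlier results of these data known. Named were the 10 genes, RBPMS, ANKRD10, genes most like a member, and from each list up to 3 genes per comparison that passed the test with the largest absolute log2 fold change and at least 1 CPM on average. The lists were luminal markers, basal markers, partner transcription factors, PPAR response genes, umbrella cell vesicle and barrier genes, stromal and immune markers, and epithelial markers.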

Additional observations from a re-analysis of the deposited data

Results flagged for a closer look

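In the knockouts, 4 of 8 tested genes had effects that differed between KO1 and KO2 by an edgeR test over all 12 libraries. Over all genes, 23.3% of 19189 were called. The effect in KO1 minus that in KO2, on the log2 scale, was 2.17 for UPK2 (adjusted p = 0.0352), 0.86 for UPK3B (adjusted p = 0.0316), -0.60 for GATA3 (adjusted p = 7.96e-05) and 1.10 for ELF3 (adjusted p = 6.83e-09). GATA3 fell in both, while ELF3 rose in KO1 and fell in KO2. The calls of UPK2 and UPK3B each held in 5 of 12 fits that left out 1 library, and those of GATA3 and ELF3 in all 12. For ELF3 the controls also differed, with WT2 above WT1 by 0.50. For UPK2 WT2 lay above WT1 by 1.32 ± 0.48, which was not called (edgeR adjusted p = 0.246).

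In the overexpression experiment, 3 of 6 tested genes differed between the forms, beside 7.26% of 20052 genes. ANKRD10-2 OE minus ANKRD10-1 OE was 0.21 for PPARG (edgeR adjusted p = 0.0191), 0.34 for GATA3 (adjusted p = 0.0468) and -0.60 for FOXA1 (adjusted p = 0.00830). In the knockdown experiment, 2 of 7 tested genes differed between the siRNAs, beside 37.0% of 18832 genes. siANKRD10-2 minus siANKRD10-1 was -0.19 for PPARG (adjusted p = 0.0378) and -0.79 for ELF3 (adjusted p = 7.97e-10). Each comparison was refitted 6 times, leaving out 1 library. Between the forms the call held in 2 fits for PPARG, 1 for GATA3 and 5 for FOXA1. Between the siRNAs it held in 1 fit for PPARG and in all 6 for ELF3. A shared RBPMS background of the groups compared is not settled, so these differences cannot be assigned to the forms alone.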

How the results depend on the processing

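The count of genes called among the 10 changed with the settings in most comparisons. In KO1 it was 4, with 1 at the 2-fold threshold (1 on the log2 scale) and 3 to 5 without 1 library. In KO2 it was 5, with 3 without a filter, 1 at the 2-fold threshold and 3 to 5 without 1 library. In ANKRD10-2 OE it was 2, with 0 at the 2-fold threshold and 1 to 3 without 1 library. With siANKRD10-1 it was 1, with 0 under DESeq2, which gave GRHL3 no adjusted p, and 0 to 1 without 1 library. With siANKRD10-2 it was 2, with 1 at the 2-fold threshold and 1 to 3 without 1 library. Between the overexpressed forms it was 3, and 0 to 3 without 1 library. Between the siRNAs it was 2, with 1 under DESeq2 and without a filter, and 1 to 2 without 1 library. For the difference between the knockouts it was 4, with 2 without a filter and 2 to 4 without 1 library. The replicate numbers did not pair the libraries: correlations of deviations between same-numbered libraries were -0.04 to 0.08 over 27 pairs, and 21 of 54 libraries correlated best with their own number. With the replicate block the counts were 4 in KO1, 5 in KO2, 3 in ANKRD10-2 OE, 2 between the forms, 1 between the siRNAs and 3 for the difference between the knockouts. FOXA1 in KO2 (edgeR adjusted p = 0.0116) and GATA3 in ANKRD10-2 OE (0.0406) were then called, while UPK1B in KO2 (0.0934), GATA3 between the forms (0.0570), PPARG between the siRNAs (0.0638) and UPK2 for the difference between the knockouts (0.0541) were not. The cause was not tested.

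Of single genes, under the settings other than the 2-fold threshold, 688 values kept direction and call, 65 lost the call, 9 gained it and 32 changed sign. GRHL3 in KO2 was 0.0016 with DESeq2's size factors, 0.0019 with DESeq2, 0.0010 with all groups, 0.029 with the replicate block, 0.12 with all 6 WT libraries and -0.22 to 0.28 without 1 library. The other changes of sign came from leaving out 1 library and none had passed the test. In KO1 the range was UPK3B -0.0086 to 0.27. In ANKRD10-1 OE the range was GATA3 -0.12 to 0.10, UPK2 -0.15 to 0.19, PPARG -0.0696 to 0.081 and UPK3B -0.30 to 0.16. In ANKRD10-2 OE the range was UPK2 -0.22 to 0.12. With siANKRD10-1 the range was UPK3B -0.13 to 0.65. With siANKRD10-2 the range was GATA3 -0.14 to 0.00046 and UPK3B -0.40 to 0.54. Between the forms the range was UPK2 -0.17 to 0.0396. Between the siRNAs the range was GRHL3 -0.039 to 0.74 and UPK3B -0.71 to 0.11. Between the controls the range was FOXA1 -0.021 to 0.0596, GRHL3 -0.0196 to 0.63 and UPK3B -0.16 to 0.11. For the difference between the knockouts the range was PPARG -0.00069 to 0.071. Over all genes, the 2-fold threshold left 1149 and 1095 called in KO1 and KO2, 80 and 241 in ANKRD10-1 OE and ANKRD10-2 OE, and 69 and 500 with siANKRD10-1 and siANKRD10-2. Between the controls 226 genes were called, 690 under DESeq2, 88 without a filter and 71 to 133 without 1 library. Without 1 library the calls were 700 to 1549 in ANKRD10-1 OE, 2617 to 3533 in ANKRD10-2 OE, 949 to 2430 with siANKRD10-1 and 694 to 1396 between the forms. Uroplakins and GRHL3 at under 100 counts per library were limited by depth. Under the settings run other than the 2-fold threshold, GATA3 in both knockouts and FOXA1 in KO1 and in ANKRD10-2 OE kept direction and call. So did ELF3 in KO2 and with siANKRD10-2, and UPK3B in KO2 (edgeR adjusted p up to 0.0493 without 1 library).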

Other observations

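In KO1, the 988 tested genes of chromosome 19 had a median log2 fold change of -0.37, against 0.03 for 1001 genes in KO2. The 151 tested genes within 5 Mb of UPK1A, which lies on this chromosome, had a median of -0.44 in KO1, and 92 of them were called. Around the other 9 genes the medians were between -0.16 and 0.12 in both knockouts. UPK1A itself was at 0 counts in these groups.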
